A study of Mus musculus with 9 samples.

Results

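The AP-1 and immediate early genes described here are 10 transcription factor and signal-response genes, Fos, Fosb, Jun, Junb, Jund, Atf3, Egr1, Egr2, Ier2 and Nr4a1, taken by symbol from a count table of 55278 usable gene symbols. All 10 were in the table and all 10 were among the 15417 genes that passed the filter on low counts. Levels were measured by RNA-seq in 9 libraries of sorted cells from the thymus of C57BL/6 mice aged 8 weeks, with no treatment listed, with 3 libraries each named CD301b (replicates 1, 3 and 4), SIRPa (replicates 1 to 3) and XCR1 (replicates 1 to 3). The populations carry the names of surface proteins: the lectin CD301b (gene Mgl2), SIRPα, which marks cDC2 (conventional dendritic cells of type 2), and the chemokine receptor XCR1, which marks cDC1 (type 1). The design text names 3 mice, and the labels leave unstated how the gates were drawn and whether populations came from the same or from pooled animals.

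Every thymus was digested with collagenase D for 30 min before staining and sorting, and no undigested library was analysed, so levels before and after digestion cannot be told apart in these data. The labels conflict on the cells, which one field calls thymocytes and another thymic dendritic cells. The dendritic cell genes Flt3, Zbtb46, Itgax, H2-Ab1 and Cd74 were detected in every population, with summed levels of 17329.9 to 27883 CPM (counts relative to the library's total, scaled by TMM) over the 9 libraries. The summed level of 6 cDC1 genes was 269 to 359 CPM in CD301b, 454 to 545 CPM in SIRPa and 3140.3 to 3771 CPM in XCR1 libraries, and that of 6 cDC2 genes 1717 to 2061 CPM in CD301b, 1042 to 1138 CPM in SIRPa and 26.1 to 26.5 CPM in XCR1 libraries. Markers of other cells were present too. For 12 genes of thymocytes and T cells the sum was 327 to 546 CPM in CD301b, 436 to 566 CPM in SIRPa and 82.2 to 505 CPM in XCR1 libraries. Of the 12, Cd4 had the highest mean in CD301b and SIRPa, at 215 and 305 CPM, against 23.9 CPM in XCR1. Cd3e averaged 32.4, 23.7 and 23.9 CPM in CD301b, SIRPa and XCR1. Rag1 (29.1, 31.8 and 42.6 CPM) and Dntt (9.48, 11.1 and 27.6 CPM) were highest in XCR1. Ptcra had 0 counts in all CD301b libraries and averaged 0.266 CPM in SIRPa and 0.112 CPM in XCR1. The summed level of 8 macrophage genes was 1349.7 to 1569.8 CPM in CD301b, 2301 to 2663 CPM in SIRPa and 87.7 to 108 CPM in XCR1 libraries. The summed level of 6 monocyte genes was 691 to 821 CPM in CD301b, 656 to 692 CPM in SIRPa and 36.2 to 102 CPM in XCR1 libraries. The part of these cells in the results below was not tested. Total counts were 20211664 to 25393886 per library, and 3 counts, the level that a count of 0 allows, corresponded to 0.119 to 0.150 CPM.

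AP-1 is a family of dimeric transcription factors in which a FOS, JUN or ATF protein pairs with a partner through a leucine zipper. Immediate early genes are switched on from factors already in the cell, without new protein synthesis, when mitogen-activated protein (MAP) kinases signal through serum response factor (SRF) with its ternary complex partners and through CREB. Growth factors, antigen receptor ligands, microbial products and mechanical or enzymatic handling of tissue are known inducers, and in dendritic cells AP-1 and EGR proteins act in maturation and cytokine transcription.

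The stretch upstream of the transcription start can hold sites through which such signals act, so the 250 bases before the start are shown for the 3 genes whose levels are followed most closely below. They come from RefSeq (build GRCm38.p6), whose promoter table held 8 of the 10 genes and gave neither Egr1 nor Ier2. Both strands were searched for the AP-1 site TGACTCA, the full CRE TGACGTCA, its core TGACG, the EGR site GCGTGGGCG and the CArG box bound by SRF. The TGACG core also lies within the full CRE. Capitals mark the TGACG cores and the CArG box, each sequence is written 5′ to 3′ on the strand of its gene, and the windows are chr10:67537619-67537868 (plus strand) for Egr2, chr1:191183334-191183583 (minus strand) for Atf3 and chr12:85473640-85473889 (plus strand) for Fos.
Egr2: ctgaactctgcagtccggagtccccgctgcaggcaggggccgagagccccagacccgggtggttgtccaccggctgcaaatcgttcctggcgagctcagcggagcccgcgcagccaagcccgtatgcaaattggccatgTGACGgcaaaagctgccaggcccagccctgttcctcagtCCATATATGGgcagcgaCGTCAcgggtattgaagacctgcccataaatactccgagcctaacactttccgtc
Atf3: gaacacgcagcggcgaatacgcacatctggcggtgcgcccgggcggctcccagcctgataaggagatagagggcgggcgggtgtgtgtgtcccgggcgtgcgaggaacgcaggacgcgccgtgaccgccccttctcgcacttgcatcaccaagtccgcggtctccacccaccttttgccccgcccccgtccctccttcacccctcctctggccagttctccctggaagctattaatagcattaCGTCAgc
Fos: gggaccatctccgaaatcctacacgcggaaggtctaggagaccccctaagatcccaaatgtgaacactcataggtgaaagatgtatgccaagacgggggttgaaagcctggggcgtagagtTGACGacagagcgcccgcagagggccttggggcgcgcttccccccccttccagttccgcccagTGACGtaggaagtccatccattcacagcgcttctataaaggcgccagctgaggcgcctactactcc
The table gave Egr2 5 windows, 1 for each start listed, and the one shown lies inside the gene span given below. The Atf3 window also lies inside the span given for Atf3. The window at its first start (chr10:67535249-67535498) had no match to any of the motifs, and the one at chr10:67537316-67537565 had a CArG box and no TGACG core. The Egr2 window shown held a CArG box at -72 to -63 from the start and TGACG cores at -111 to -107 and -55 to -51. Atf3 had 1 TGACG core, at -7 to -3, and Fos had TGACG cores at -129 to -125 and -66 to -62. Of the 8 genes in the table, 6 had the TGACG core (Atf3, Egr2, Fos, Fosb, Junb and Nr4a1), against 19.8% of 27025 genes, and 1 had the CArG box (Egr2), against 1.62% of genes. Counted by window, the shares over all 32851 windows were 17.8% for the TGACG core and 1.47% for the CArG box. The AP-1 site, the full CRE and the EGR site, which 4.46%, 1.55% and 0.536% of windows held, matched in none of the 12 windows of the 8 genes. A match is a description of these letters only, and sites outside the 250 bases were not searched. The only Jund window (chr8:70697489-70697738) ends upstream of the Jund start given below, 70698949. The 250 bases before that start were therefore not searched, though Jund is counted among the 8 genes.

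Of the 10 genes, 4 were higher in CD301b than in SIRPa libraries by edgeR's quasi-likelihood test, where 2.20% of all genes tested were, and 0 were lower, where 2.08% were. Across all 3 populations 6 of the 10 differed, where 25.8% of genes tested did. Per full exonic length, Fos and Jun had the highest means in all 3 populations. Jund shares 877 of its 1668 exonic bases with a gene on the opposite strand. If reads there went uncounted, the per-length level of Jund is too low here. Its place below Jun and the shares of Fos and Jun given below are therefore not settled. Egr2 and Atf3 stood highest in CD301b, then SIRPa, then XCR1, while Egr1 stood highest in XCR1, then CD301b, then SIRPa. Per kilobase of exonic length, Fos averaged 196 CPM in CD301b libraries, 119.9 in SIRPa libraries and 142 in XCR1 libraries, and Jun 131, 93.9 and 90.4 CPM per kilobase in CD301b, SIRPa and XCR1. Jun and Jund did not separate in CD301b or XCR1, nor Fos and Jun in CD301b or SIRPa, since their library ranges overlapped. At the other end stood Nr4a1 in CD301b, at 8.62 CPM per kilobase, and Egr2 in SIRPa and XCR1, at 4.82 and 2.23 CPM per kilobase. Together Fos and Jun held 51.3 to 53.2% of the summed per-length level of the 10 genes in CD301b, 46.6 to 52.5% in SIRPa and 46.2 to 49.3% in XCR1 libraries. These are bulk libraries, in which fewer cells of a type and less RNA per cell cannot be told apart.

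**Figure D1:**
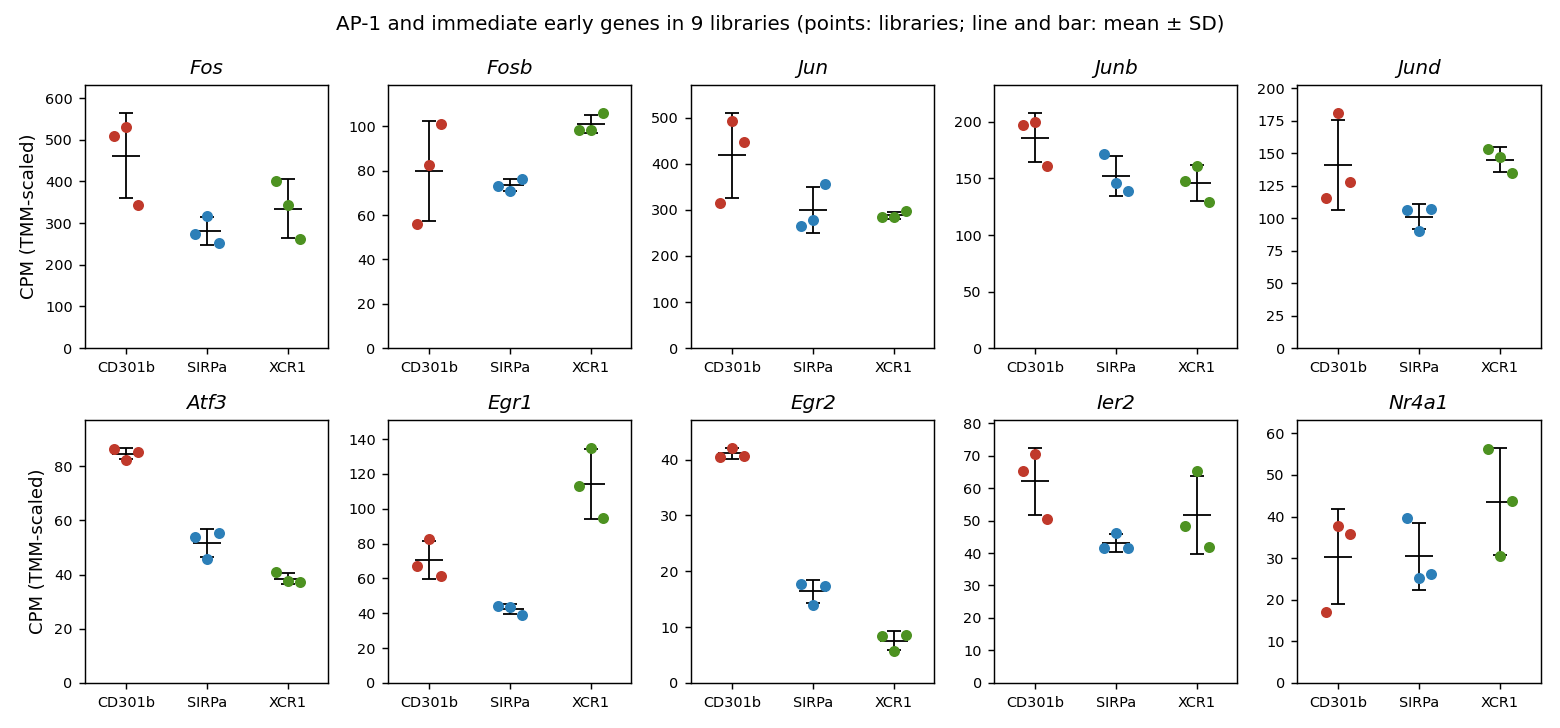
Level of each of the 10 genes in CPM (linear axes from 0, one panel per gene) in the CD301b, SIRPa and XCR1 libraries. Points are libraries, and the bar and whiskers give mean and SD of 3. Egr2 shows 3 separate levels, at 41.1, 16.4 and 7.57 CPM, while the Nr4a1 points overlap between populations.

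Fos, the founding FOS protein (chromosome 12, 85473890 to 85477273, plus strand, GRCm38), stood at 510.3, 530.2 and 344 CPM in CD301b replicates 1, 3 and 4, at 275, 318 and 252 CPM in SIRPa replicates 1 to 3, and at 400.4, 344 and 261 CPM in XCR1 replicates 1 to 3. All CD301b libraries lay above all SIRPa libraries, but the XCR1 range overlapped both. Its log2 fold change was 0.71 ± 0.18 (SE) for CD301b against SIRPa, with an adjusted p of 0.0483 by edgeR's quasi-likelihood test. For CD301b against XCR1 it was 0.46 ± 0.18 (edgeR adjusted p = 0.0914), and for SIRPa against XCR1 -0.25 ± 0.18 (edgeR adjusted p = 0.395). Fosb, a FOS protein with a truncated splice form known in the brain (chromosome 7, 19302696 to 19310051, minus strand), stood at 56.0, 82.5 and 101 CPM in CD301b, 73.0, 70.9 and 76.2 CPM in SIRPa and 98.2, 98.4 and 106 CPM in XCR1 libraries. The XCR1 libraries lay above the SIRPa libraries, and the CD301b libraries spread across both. Fosb was lower in SIRPa than in XCR1, by a log2 difference of -0.46 ± 0.16 (edgeR adjusted p = 0.0425). The difference of CD301b did not pass against SIRPa (log2 0.12 ± 0.16, edgeR adjusted p = 0.863) or against XCR1 (log2 -0.33 ± 0.16, edgeR adjusted p = 0.155).

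The JUN proteins pair with FOS proteins, with ATF proteins or with each other. Jun (chromosome 4, 95049034 to 95052222, minus strand, 1 exon) stood at 315, 492 and 446 CPM in CD301b, 264, 278 and 356 CPM in SIRPa and 284, 285 and 297 CPM in XCR1 libraries. The CD301b libraries lay above the XCR1 libraries, with a log2 fold change of 0.53 ± 0.14 (edgeR adjusted p = 0.0104). Against SIRPa the CD301b value was 0.48 ± 0.14 (edgeR adjusted p = 0.0703), and SIRPa against XCR1 gave 0.05 ± 0.14 (edgeR adjusted p = 0.854). Junb, which antagonises JUN at some targets (chromosome 8, 84974484 to 84978718, minus strand), ran from 161 to 200.2 CPM in CD301b, 139 to 172 CPM in SIRPa and 129.6 to 161 CPM in XCR1 libraries. Its ranges touched or overlapped in every pair, and only the difference of CD301b from XCR1 passed, at log2 0.35 ± 0.12 (edgeR adjusted p = 0.0463). Junb stood at log2 0.29 ± 0.12 for CD301b against SIRPa (edgeR adjusted p = 0.267) and 0.06 ± 0.12 for SIRPa against XCR1 (edgeR adjusted p = 0.810). Jund, the JUN protein expressed steadily in many resting cells (chromosome 8, 70698949 to 70700616, plus strand, 1 exon), stood at 116, 181 and 128 CPM in CD301b, 106, 89.9 and 107 CPM in SIRPa and 153, 147 and 135 CPM in XCR1 libraries. SIRPa libraries lay below all libraries of both other populations. The difference of SIRPa from XCR1 passed (log2 -0.52 ± 0.14, edgeR adjusted p = 0.00940), and that of CD301b from SIRPa did not (log2 0.49 ± 0.14, edgeR adjusted p = 0.0601), nor did that of CD301b from XCR1 (log2 -0.04 ± 0.14, edgeR adjusted p = 0.908). Jun, Junb and Jund overlap genes on the opposite strand (Junos, Prdx2 and Gm11175) over 232 of 3189, 173 of 2301 and 877 of 1668 exonic bases. The labels do not say whether strand was used in counting, so reads of the overlaps could not be assigned. Summed over the 9 libraries, the partners held 298, 13017 and 198 counts, against 66134 for Jun, 31973 for Junb and 25375 for Jund.

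Atf3, a stress-induced ATF protein that often represses its targets (chromosome 1, 191170296 to 191218039, minus strand), differed between all 3 populations. It stood at 86.4, 82.3 and 85.3 CPM in CD301b, 53.9, 45.7 and 55.5 CPM in SIRPa and 40.8, 37.7 and 37.1 CPM in XCR1 libraries. No population overlapped another. The log2 fold change was 0.71 ± 0.14 for CD301b against SIRPa (edgeR adjusted p = 0.00340), 1.14 ± 0.14 for CD301b against XCR1 (2.20-fold, edgeR adjusted p = 2.40e-06) and 0.42 ± 0.14 for SIRPa against XCR1 (edgeR adjusted p = 0.0291).

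Egr1 and Egr2 encode zinc finger proteins of 1 family that bind a shared GC-rich site and are held back by the NAB corepressors. Their levels differed in opposite ways between XCR1 and the other populations. Egr2 (chromosome 10, 67535475 to 67542188, plus strand) stood at 40.4, 42.1 and 40.7 CPM in CD301b, 17.8, 14.0 and 17.4 CPM in SIRPa and 8.47, 5.65 and 8.58 CPM in XCR1 libraries. The populations did not overlap, and the log2 fold change was 1.33 ± 0.22 for CD301b against SIRPa (2.51-fold, edgeR adjusted p = 0.000897), 2.44 ± 0.23 for CD301b against XCR1 (5.43-fold, edgeR adjusted p = 6.83e-08) and 1.11 ± 0.23 for SIRPa against XCR1 (edgeR adjusted p = 0.000824). Egr1 (chromosome 18, 34859823 to 34864984, plus strand) stood at 67.0, 82.6 and 61.6 CPM in CD301b, 44.4, 43.5 and 38.9 CPM in SIRPa and 113, 135 and 94.6 CPM in XCR1 libraries. Here XCR1 lay above CD301b, and CD301b above SIRPa, with no overlap. The log2 fold change was 0.74 ± 0.15 for CD301b against SIRPa (edgeR adjusted p = 0.00555), -0.70 ± 0.15 for CD301b against XCR1 (edgeR adjusted p = 0.00155) and -1.43 ± 0.15 for SIRPa against XCR1 (0.371-fold, edgeR adjusted p = 3.50e-07).

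The ratio of Egr2 counts to Egr1 counts does not depend on how libraries are scaled; it was chosen after the values of both genes were seen. It was 0.603, 0.510 and 0.661 in CD301b, 0.400, 0.322 and 0.447 in SIRPa and 0.0751, 0.0419 and 0.0907 in XCR1 libraries, or 0.591 ± 0.0764, 0.389 ± 0.0632 and 0.0692 ± 0.0249 (SD, n = 3 each). The 3 populations did not overlap. Each pair gave an exact two-sided permutation p of 0.1, the smallest that 3 libraries against 3 allow, and 0.1 after adjustment over the 3 pairs. For both pairs with XCR1 this followed from the opposite, non-overlapping levels of the genes, so the test adds nothing there.

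**Figure D2:**
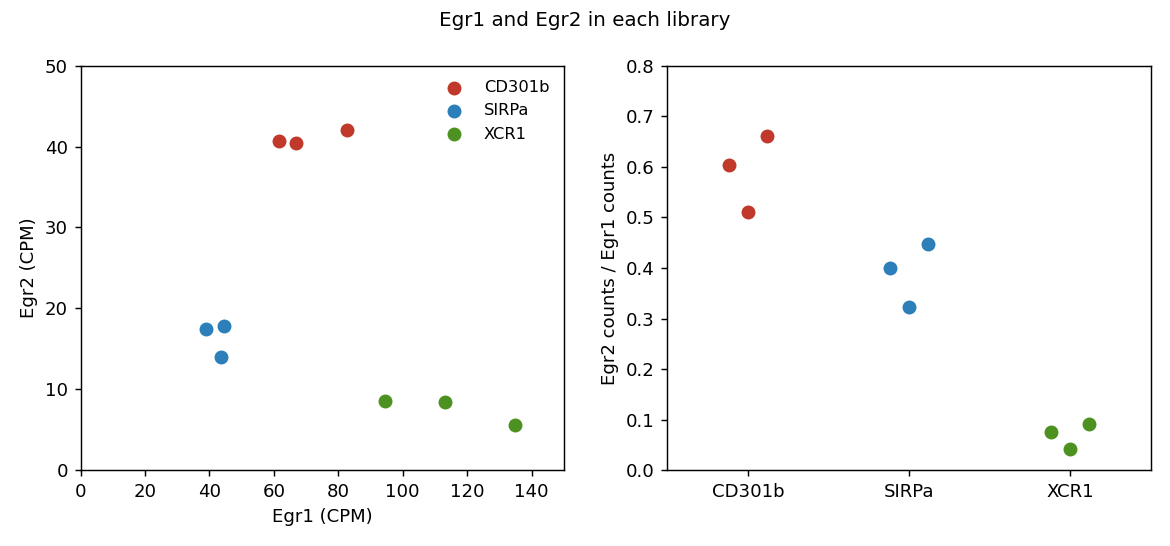
Left, Egr1 level (x axis, CPM) and Egr2 level (y axis, CPM), 1 point per library, coloured by population; right, the ratio of Egr2 to Egr1 counts in the same libraries. CD301b libraries lie at 40.4 to 42.1 CPM of Egr2, and XCR1 libraries at 5.65 to 8.58 CPM of Egr2 and 94.6 to 135 CPM of Egr1.

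Ier2, a nuclear protein without a well defined function (chromosome 8, 84661331 to 84662852, minus strand, 1 exon), ran from 50.5 to 70.4 CPM in CD301b, 41.4 to 46.3 CPM in SIRPa and 41.9 to 65.2 CPM in XCR1 libraries. The CD301b libraries lay above the SIRPa libraries, yet the difference did not pass (log2 0.53 ± 0.17, edgeR adjusted p = 0.110). Against XCR1, Ier2 stood at log2 0.26 ± 0.17 for CD301b (edgeR adjusted p = 0.334) and -0.26 ± 0.17 for SIRPa (edgeR adjusted p = 0.324). Nr4a1, an orphan nuclear receptor known as Nur77 and induced by antigen receptor signals in T cells (chromosome 15, 101254269 to 101274795, plus strand), stood at 17.1, 37.8 and 35.9 CPM in CD301b, 39.7, 25.2 and 26.2 CPM in SIRPa and 56.3, 30.6 and 43.8 CPM in XCR1 libraries. The ranges overlapped in all 3 pairs and none of its differences passed. They were log2 -0.01 ± 0.30 for CD301b against SIRPa (edgeR adjusted p = 0.999), -0.53 ± 0.30 for CD301b against XCR1 (edgeR adjusted p = 0.254) and -0.52 ± 0.30 for SIRPa against XCR1 (edgeR adjusted p = 0.255), with the largest SE of the 10 genes.

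Against SIRPa, CD301b libraries had higher Fos, Atf3, Egr1 and Egr2, which is 4 of the 10 genes, where 2.20% of the 15417 genes tested were called higher. The count of genes called lower was 0 of 10, where 2.08% of genes tested were called lower. It was also 0 with DESeq2, with limma-voom and at an unadjusted p under 0.05. Groups did not overlap for 6 of the 10 (Fos, Jund, Atf3, Egr1, Egr2 and Ier2), against 22.1% of genes tested. The median log2 fold change was 0.51 for the 10 genes and 0.01 for all genes tested. Without the filter on low counts 7 of the 10 were called, where 936 of 25264 genes were. The call of Fos was lost when CD301b replicate 1 or 3, any SIRPa replicate or XCR1 replicate 2 was left out, with RLE scaling and on the authors' log2 CPM (adjusted p = 0.0531 to 0.205, and 6.03e-08 to 0.205 over its 16 alternatives).

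Against XCR1, CD301b libraries had higher Jun, Junb, Atf3 and Egr2, 4 of 10 where 13.5% of genes tested were called higher, and lower Egr1, 1 of 10 where 9.12% were called lower. Groups did not overlap for 4 of the 10 (Jun, Atf3, Egr1 and Egr2), where 34.4% of genes tested did not. The median log2 fold change was 0.30 for the 10 genes and 0.05 for all genes tested. Without CD301b replicate 3 the number called was 3, where 3082 of 16452 genes tested were. Jun then stood at an edgeR adjusted p of 0.0563 (6.53e-05 to 0.0767 over its alternatives) and Junb was lost too. Jun was also lost without CD301b replicate 4, and Junb was lost in 11 of 16 alternatives, with adjusted p up to 0.179, among them those without CD301b replicate 1, any SIRPa replicate, or XCR1 replicate 1 or 3.

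Against XCR1, SIRPa libraries had higher Atf3 and Egr2, 2 of 10 where 13.9% of genes tested were called higher, and lower Fosb, Jund and Egr1, 3 of 10 where 10.7% were called lower. Groups did not overlap for 5 of the 10, where 40.2% of genes tested did not. The median log2 fold change was -0.26 for the 10 genes and 0.06 for all genes tested. The number called was 3 when SIRPa replicate 1, 2 or 3 or XCR1 replicate 2 or 3 was left out. Over all genes those fits called 3015 to 3676, against 3803 with all libraries. Fosb was lost when any 1 SIRPa or XCR1 library was left out (adjusted p = 0.0716 to 0.109), Atf3 when SIRPa replicate 1 or 3 or XCR1 replicate 2 or 3 was left out, with no filter, with limma-voom and on the authors' log2 CPM (0.0540 to 0.134) and Jund without SIRPa replicate 2 (0.0533). Among all 3 populations together, 6 of the 10 passed (Fos, Jun, Jund, Atf3, Egr1 and Egr2), where 25.8% of genes tested did. That number was 4 without CD301b replicate 3, 8 without CD301b replicate 4 and 9 with no filter on low counts. Over all genes it was 3824 of 16452, 4131 of 16435 and 4407 of 25264 in the same settings. The calls of Egr1 and Egr2 in all 3 comparisons, and of Atf3 in the 2 that involve CD301b, passed in all 16 alternatives.

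**Figure D3:**
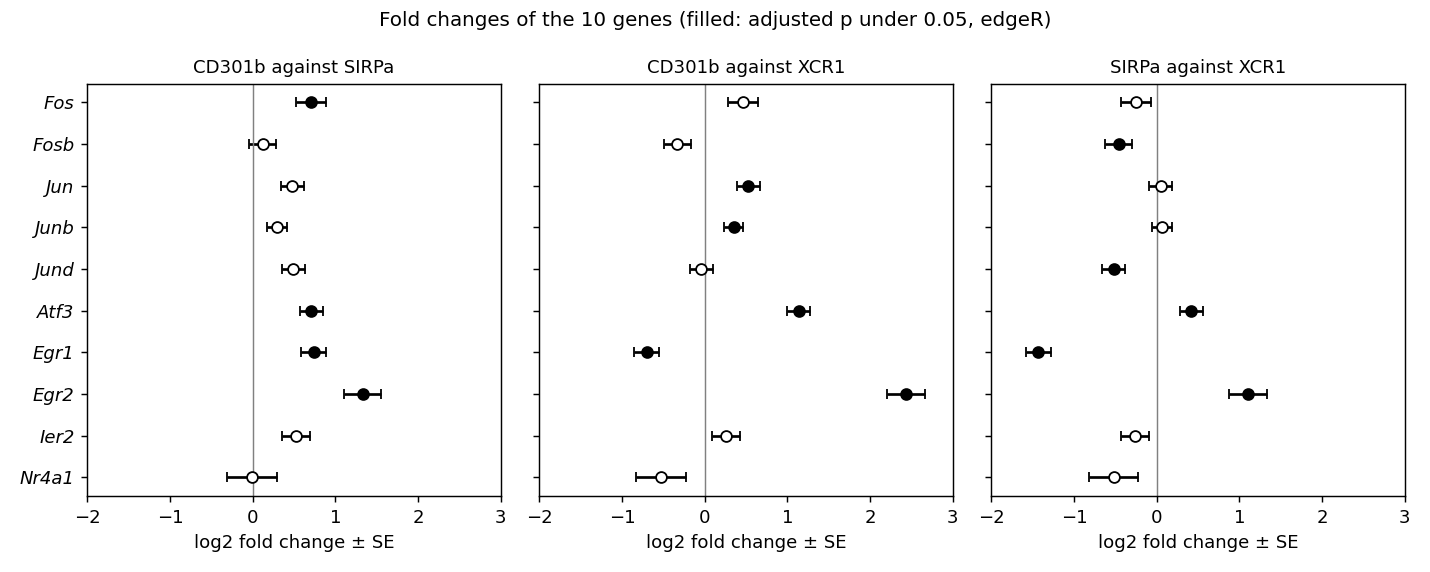
Log2 fold change of each of the 10 genes in the 3 comparisons (points, with SE as bars). Egr2 lies above 0 in all 3, from 1.11 to 2.44, and Egr1 lies above 0 only for CD301b against SIRPa.

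Within populations, 4 of the 10 genes shared their lowest library, with Fos counted as the reference. The share of all genes tested that were lowest in the same libraries was not counted. Fos, Junb, Egr1 and Ier2 were all lowest in CD301b replicate 4, in SIRPa replicate 3 and in XCR1 replicate 3. Against its population's mean log2 level, Fos was at -0.40 in CD301b replicate 4, -0.15 in SIRPa replicate 3 and -0.34 in XCR1 replicate 3. These 3 libraries also had the highest sum of the 12 thymocyte and T cell genes in their population, at 546 CPM against 327 and 430.4 in the other CD301b libraries, 566 CPM against 484 and 436 in SIRPa and 505 CPM against 96.5 and 82.2 in XCR1. The same 3 libraries had the lowest sum of the 6 cDC1 genes, at 269 CPM against 326 and 359 in the other CD301b libraries, 454 CPM against 501 and 545 in SIRPa and 3140.3 CPM against 3742 and 3771 in XCR1. Both lists were named because they matched, out of 12 marker lists with a highest and a lowest library each. XCR1 replicate 3 was also the highest XCR1 library for the cDC2, B cell, macrophage, monocyte, granulocyte, stroma and erythroid lists. Its monocyte sum, for example, was 102 CPM against 36.2 and 45.9 in XCR1 replicates 1 and 2. The lowest sum of the cDC2 genes fell in XCR1 replicate 1, and that of the conventional dendritic cell genes in SIRPa replicate 2. The part of either matching list in the lower levels was not tested. Egr2 was lowest in other libraries in all 3 populations, and Nr4a1 deviated most, at -0.74 in CD301b replicate 1. CD301b replicate 3 was the highest CD301b library for 8 of the 10 genes, all but Fosb and Atf3. The share of all genes tested that were highest there was not counted. With each gene's log2 level standardised over the 9 libraries, the mean of the 10 was 1.11 in CD301b replicate 3. It was 0.20 in CD301b replicate 1 and 0.47 in replicate 4.

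**Figure D4:**
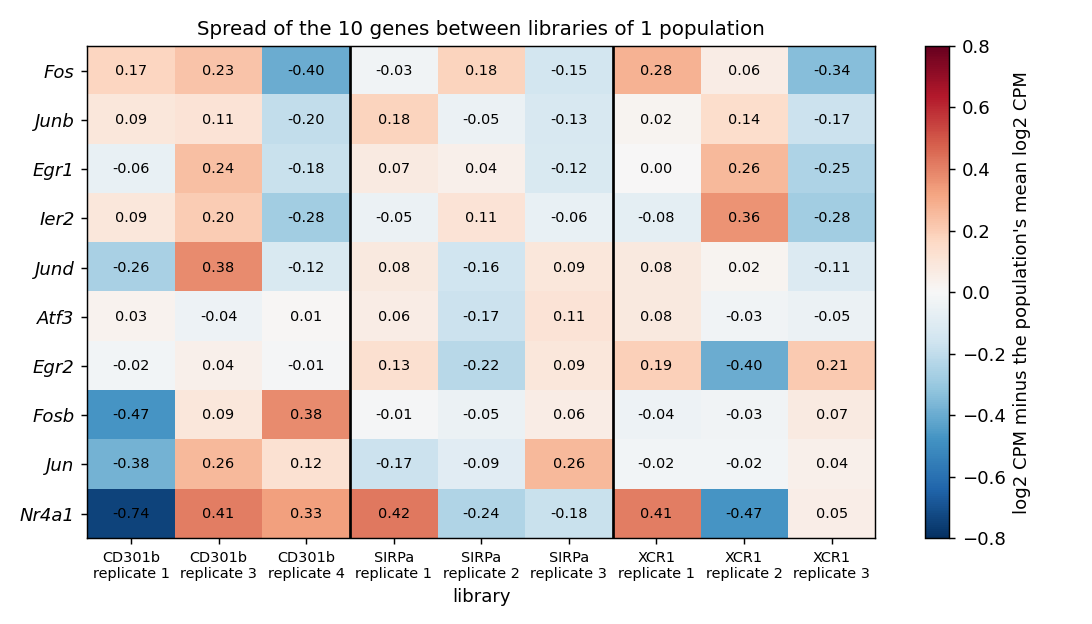
Log2 level of each of the 10 genes in each library minus the mean of its population, as a colour scale with the value in each cell. The columns are libraries, and the lowest cells of Fos, Junb, Egr1 and Ier2 fall in CD301b replicate 4, SIRPa replicate 3 and XCR1 replicate 3.

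The other members of the families and pathways were counted in lists chosen with earlier results known. Their counts read against the shares of all genes tested: for CD301b against SIRPa 2.20% were higher and 2.08% lower, for CD301b against XCR1 13.5% and 9.12%, and for SIRPa against XCR1 13.9% and 10.7%. Those shares are for edgeR at an adjusted p under 0.05. No share of all genes was counted at an unadjusted p under 0.05, so list counts at that threshold have no background here. Of 5 other EGR, NR4A and NAB genes tested, 1 was higher and 0 were lower in CD301b than in SIRPa, 2 higher and 2 lower in CD301b than in XCR1, and 0 higher and 2 lower in SIRPa than in XCR1. By DESeq2, by limma-voom and at an unadjusted p under 0.05, both counts of 0 were also 0. The median log2 fold change of the 5 was 0.36 for CD301b against SIRPa, -0.35 for CD301b against XCR1 and -0.29 for SIRPa against XCR1, where all genes tested had 0.01, 0.05 and 0.06. Nr4a3, a paralog of Nr4a1, was higher in both CD301b comparisons, at 312 ± 29.7 CPM in CD301b libraries, 176 ± 11.5 in SIRPa libraries and 161 ± 8.39 in XCR1 libraries (SD, n = 3 each). Its log2 fold change was 0.82 ± 0.11 against SIRPa (edgeR adjusted p = 5.63e-05) and 0.96 ± 0.11 against XCR1 (edgeR adjusted p = 5.86e-07). Egr3, a paralog of Egr1, was lower, at 11.1 ± 1.91 CPM in CD301b and 8.59 ± 4.45 in SIRPa against 34.1 ± 11.3 in XCR1, with log2 fold changes of -1.62 ± 0.34 for CD301b (edgeR adjusted p = 0.00130) and -1.99 ± 0.34 for SIRPa (edgeR adjusted p = 0.000195).

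Upstream of these genes stand the MAP kinases and SRF. Of 21 MAP kinase cascade and SRF partner genes tested, 0 were called between CD301b and SIRPa by edgeR (3 higher and 1 lower at an unadjusted p under 0.05, 1 higher by DESeq2 and 0 by limma-voom), with a median log2 fold change of 0.10. Against XCR1, 6 were higher and 5 lower in CD301b (13.5% and 9.12% of all genes tested), and 5 higher and 5 lower in SIRPa (13.9% and 10.7%), with medians of 0.02 and 0.07. Srf, whose protein binds the CArG box, was lower in SIRPa at 32.8 ± 2.76 CPM, against 64.3 ± 12.3 in XCR1 (log2 -0.97 ± 0.17, edgeR adjusted p = 0.000210). Of 13 MAP kinase phosphatases and feedback inhibitors, 0 were higher and 1 lower in CD301b than in SIRPa (2 higher at an unadjusted p under 0.05, 0 by DESeq2 and by limma-voom), the lower one being Spred1, an inhibitor of RAF activation. In CD301b and in SIRPa alike, 4 of the 13 were higher and 2 lower than in XCR1. Dusp6, a phosphatase that inactivates ERK, was among the higher ones in both, with a log2 fold change of 3.58 for CD301b (edgeR adjusted p = 8.45e-11) and 3.84 for SIRPa (edgeR adjusted p = 3.54e-11).

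Among the 21 other AP-1 and related bZIP genes tested, 0 were higher and 2 lower in CD301b than in SIRPa, with 0 higher by DESeq2 and by limma-voom and 3 at an unadjusted p under 0.05. Against XCR1, 8 were higher and 3 lower in CD301b, and 7 higher and 3 lower in SIRPa. Their median log2 fold change was 0.09 for CD301b against SIRPa, 0.26 for CD301b against XCR1 and 0.11 for SIRPa against XCR1. Nfe2l2, a bZIP factor of the oxidative stress response, averaged 119 ± 20.1 CPM in CD301b libraries and 159.9 ± 26.6 in SIRPa libraries, against 47.7 ± 4.46 in XCR1 libraries. It was higher than in XCR1 both in CD301b (log2 1.32 ± 0.15, edgeR adjusted p = 5.43e-07) and in SIRPa (log2 1.74 ± 0.15, edgeR adjusted p = 1.01e-08), and the difference of CD301b from SIRPa did not pass (log2 -0.42 ± 0.14, edgeR adjusted p = 0.115). Of 26 other immediate early genes, 2 were higher and 0 lower in CD301b than in SIRPa (5 lower at an unadjusted p under 0.05, 1 by DESeq2 and by limma-voom), with Klf4, a zinc finger factor, at 162 ± 22.6 CPM in CD301b against 74.1 ± 13.5 CPM in SIRPa (log2 1.13 ± 0.17, edgeR adjusted p = 0.000284). Against XCR1, 12 of the 26 were higher and 5 lower in CD301b (13.5% and 9.12% of all genes tested), and 10 higher and 3 lower in SIRPa (13.9% and 10.7%), with medians of 0.05 for CD301b against SIRPa, 0.30 for CD301b against XCR1 and 0.18 for SIRPa against XCR1.

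Heat shock genes, which tissue handling can also induce, showed 0 of 11 higher and 0 lower in CD301b than in SIRPa by edgeR, with 2 higher and 0 lower at an unadjusted p under 0.05, 0 by DESeq2 and 1 higher by limma-voom. The most abundant uncalled one, Hsp90ab1, averaged 2484 ± 259 CPM in CD301b libraries and 2197 ± 72.8 in SIRPa libraries (log2 0.18 ± 0.09, edgeR adjusted p = 0.402). Against XCR1, 0 of 11 were higher and 2 lower in CD301b, and likewise in SIRPa, the lower ones being Hspa8 and Hspe1, and 0 were higher at an unadjusted p under 0.05 or by either other tool. The medians of the 11 were 0.18 for CD301b against SIRPa, -0.03 for CD301b against XCR1 and -0.21 for SIRPa against XCR1. Of 9 early inflammatory genes, such as Il1b, none was called between CD301b and SIRPa (1 higher at an unadjusted p under 0.05, 0 by DESeq2 and by limma-voom), while 6 were higher and 0 lower in each of them than in XCR1 by edgeR. The count of lower genes was also 0 by DESeq2 and by limma-voom at the adjusted threshold, and 0 by edgeR at an unadjusted p under 0.05, at which DESeq2 had 1 for SIRPa against XCR1. In that comparison limma-voom called 4 higher. The median log2 fold change of the 9 was 0.06 for CD301b against SIRPa, 1.79 for CD301b against XCR1 and 2.16 for SIRPa against XCR1. Il1b averaged 88.5 ± 8.75 CPM in CD301b libraries and 68.9 ± 3.38 in SIRPa libraries, against 9.85 ± 2.69 in XCR1 (log2 3.17 ± 0.18 for CD301b and 2.81 ± 0.18 for SIRPa).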

How the data were processed

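RNA-seq counts of 9 libraries were analysed. Per the submitters' processing notes, reads were aligned and counted by the authors against mm10, with HISAT2 and featureCounts (Subread) among the tools named beside FastQC, SAMtools, Trimmomatic and edgeR; their versions, the annotation and strand setting go unstated there. The deposited table holds raw read counts for 55302 symbols; 24 had become dates (0.125 to 0.187% of counts) and were left out. A second table deposited by the authors holds log2 CPM of 22066 genes and served as an alternative only. The genes and lists were chosen with earlier results of these data known, so they are no independent evidence.

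Genes were filtered with filterByExpr (minimum count 10), scaled by TMM and tested with edgeR 4.0.16's quasi-likelihood test (robust, two-sided) in 1 fit over all libraries, with R 4.3.3. Benjamini-Hochberg adjustment ran over all 15417 genes, with a threshold of 0.05. limma 3.58.1, DESeq2 1.42.0 and scipy 1.17.1 served the alternatives and exact tests. Values are TMM-scaled CPM with SD. The SE of a log2 fold change was derived from the test, as its absolute value divided by the square root of the F statistic. Exonic lengths and positions come from GENCODE vM21, promoters from RefSeq. All 10 genes are given in each comparison, and from each other list some of the 3 called genes that ranked first by adjusted p and of the uncalled gene with the highest mean. Nothing states that libraries came from separate animals, so p-values reflect the spread among these libraries, which may be technical, and floors cover counting error only. Some genes of these lists are not reported here.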

Additional observations from a re-analysis of the deposited data

How the results depend on the processing

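Of 480 alternative values of the 10 genes' fold changes, 413 kept direction and side of the threshold, 22 passed only in the alternative, 35 no longer passed and 10 turned direction, none of those past the threshold; the causes were not tested. With a replicate block, the CD301b against SIRPa difference of Fosb became -0.12. Leaving out 1 library, the log2 fold change ran from -0.09 to 0.32 for Fosb and -0.20 to 0.27 for Nr4a1 (CD301b against SIRPa), -0.25 to 0.07 for Jund (CD301b against XCR1), and -0.10 to 0.12 for Jun and -0.05 to 0.13 for Junb (SIRPa against XCR1). The number of the 10 genes called was 7 with no filter against 4 for CD301b and SIRPa, and 8 with the replicate block against 5 for CD301b and XCR1. Over all genes, no filter gave 936 of 25264 against 660 of 15417 for CD301b and SIRPa. The block gave 2913 against 3487 of 15417 for CD301b and XCR1. Leaving out 1 library gave 3 to 6 for CD301b against SIRPa, 3 to 6 for CD301b against XCR1 and 3 to 5 for SIRPa against XCR1. Over all genes those fits called 328 to 813, 2921 to 3249 and 3015 to 4042, in the same order. Deviations of same-numbered libraries correlated at 0.002 to 0.063. XCR1 replicates 2 and 3 correlated best with the SIRPa library of the same number (0.036 and 0.047), and XCR1 replicate 1 with SIRPa replicate 2 (0.024 against 0.012). Correlations this low cannot decide whether same-numbered libraries share animals, so a call kept with the block is no separate check. The block is still counted among the 16 alternatives of each call and among the 480 values. The block gave 5 for CD301b against SIRPa and 5 for SIRPa against XCR1, where 660 and 4034 of all 15417 genes were called. Over all genes, 660 were called for CD301b against SIRPa, 328 without SIRPa replicate 1 and 981 with DESeq2. The number of the 10 genes that differed among the 3 populations was 9 with no filter or with the replicate block and ran from 4 to 8 with 1 library left out, against 6. Over all genes it was 4407 of 25264 with no filter and 4074 with the block. With 1 library left out it ran from 3371 to 4131, against 3973. Leaving out 1 library could not change the order of the Egr2 to Egr1 ratios, since the single libraries did not overlap.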

Other observations

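Outside the fixed lists, 9321 genes with a mean of at least 5 CPM were ranked by how closely their log2 CPM followed the mean standardised level of the 10 genes over the 9 libraries. The most alike were Esyt1 (Pearson r = 0.976), Sp2 (0.955), Fam117b (0.950), Akr7a5 (0.918), Casp6 (0.916), Olfm1 (0.914), Pno1 (0.910) and Cnr2 (0.909). The correlations describe 9 libraries that share populations and depth. Casp6, an executioner caspase, averaged 91.9 ± 8.42 CPM in CD301b libraries, 25.9 ± 1.93 in SIRPa libraries and 41.4 ± 1.54 in XCR1 libraries, and Olfm1, a secreted glycoprotein, at 312 ± 51.5, 117 ± 15.2 and 175 ± 30.4 CPM in CD301b, SIRPa and XCR1 (SD, n = 3 each).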
